A study of Mus musculus with 20 samples.

Results

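The genes described here encode the proteasome, and were found as the protein-coding mouse genes whose symbol begins with Psma, Psmb, Psmc, Psmd, Psme, Psmf or Psmg and a number. The rule found 50 genes among the 56941 rows of the count table. Of these, 49 encode proteasome subunits, activators, an inhibitor or assembly chaperones, and Psmc3ip, a partner of meiotic recombination enzymes, matched by its symbol only. RNA depleted of ribosomal RNA was sequenced from the whole soleus of one hind limb of C57BL/6J mice, 10 in the space group and 10 in the control group. The soleus is a postural muscle of the calf rich in slow fibres. The space mice had 14 days of hind-limb unloading, ionizing radiation and a stress hormone given in the diet, applied together, so the effects of the 3 agents cannot be told apart. The control mice were sham-irradiated and housed alike. Age, sex, radiation dose and the name of the hormone are not stated in the labels.

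The 26S proteasome degrades proteins that carry chains of ubiquitin, and in muscle that loses load it is a main route by which contractile proteins are broken down. Its 20S core is a barrel of outer alpha rings, which gate the entrance, and inner beta rings, which hold the proteolytic sites. The 19S cap is built from a base, with a ring of ATPases that unfold substrates, and a lid, which takes off ubiquitin. Chaperones that are absent from the finished particle assemble base and core, and other caps can replace the 19S cap on the core. NRF1, the product of Nfe2l1, is the transcription factor known for inducing many proteasome genes together when proteasome activity is short.

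Total counts were 24062159 to 39620873 in space libraries and 17336017 to 43424464 in control libraries, and 16778 genes had enough counts to be tested. Of the 49 proteasome genes, 47 were tested. Space libraries 1 to 4 stood apart: their summed level of 8 Schwann cell and nerve markers was 400.6 to 1190.1 CPM (counts scaled to a common library total), against 71.3 to 140.6 CPM in space libraries 5 to 10 and 59.6 to 132 CPM in control libraries. All 8 muscle fibre markers were present in every library, and their sum was 24450.0 to 36285 CPM in space libraries and 44186 to 53715 CPM in control libraries, with 2 of the 8 higher and 5 lower. Endothelial markers summed to 333 to 429 CPM in space libraries and 371 to 492 CPM in control libraries (1 of 7 higher, 2 lower), and fibroblast markers to 445 to 680.0 CPM in space libraries and 558 to 1280.1 CPM in control libraries (2 of 6 higher, 3 lower). Abundant members weigh most in these sums, and members moved in both directions. Mean CPM of Myh2 was 321 in space and 10020 in control libraries, whereas Ckm had 9072 in space and 4100 in control libraries. Among fibroblast markers, Col1a1 had 63.1 in space and 283 in control libraries, whereas Dcn had 286 in space and 214 in control libraries. A lower sum is therefore no measure of the amount of a cell type. The part of these cell types in the results below was not tested. In RNA from whole muscle, fewer cells of a type and less RNA per cell cannot be told apart.

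Most proteasome genes had less RNA in space muscle, by small amounts, and the fall was uneven across the particle. By edgeR's quasi-likelihood test with Benjamini-Hochberg adjustment over all tested genes, 28 of the 47 tested proteasome genes (59.6%) were lower in space, against 28.9% of all tested genes. Another 7 (14.9%) were higher, against 28.7% of all tested genes, and 12 were not called. The changes were smaller than usual for called genes: the median size on the log2 scale was 0.29 over the 35 called proteasome genes, which spanned 0.11 to 0.75, and 0.44 over all called genes, which were 57.6% of those tested. When a change had to exceed a fold of 1.2, 10 proteasome genes (21.3%) were lower, against 14.8% of all tested genes, and 1 (2.13%) was higher, against 14.2%.

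Groups that did not overlap at all gave a similar contrast. Every space library was below every control library for 12 proteasome genes (25.5%), against 11.0% of all tested genes, and above every control library for 2 (4.26%), against 6.48%. Without space libraries 1 to 4, 23 proteasome genes (48.9%) were lower, against 26.1% of all tested genes, and 7 (14.9%) were higher, against 25.2%. Over all tested genes the median log2 fold change was 0.02, and over the tested proteasome genes it was -0.19. With library size alone in place of TMM scaling these medians were 0.10 and -0.11, so the distance between them was nearly kept, and 22 proteasome genes were lower and 8 higher.

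**Figure D1:**
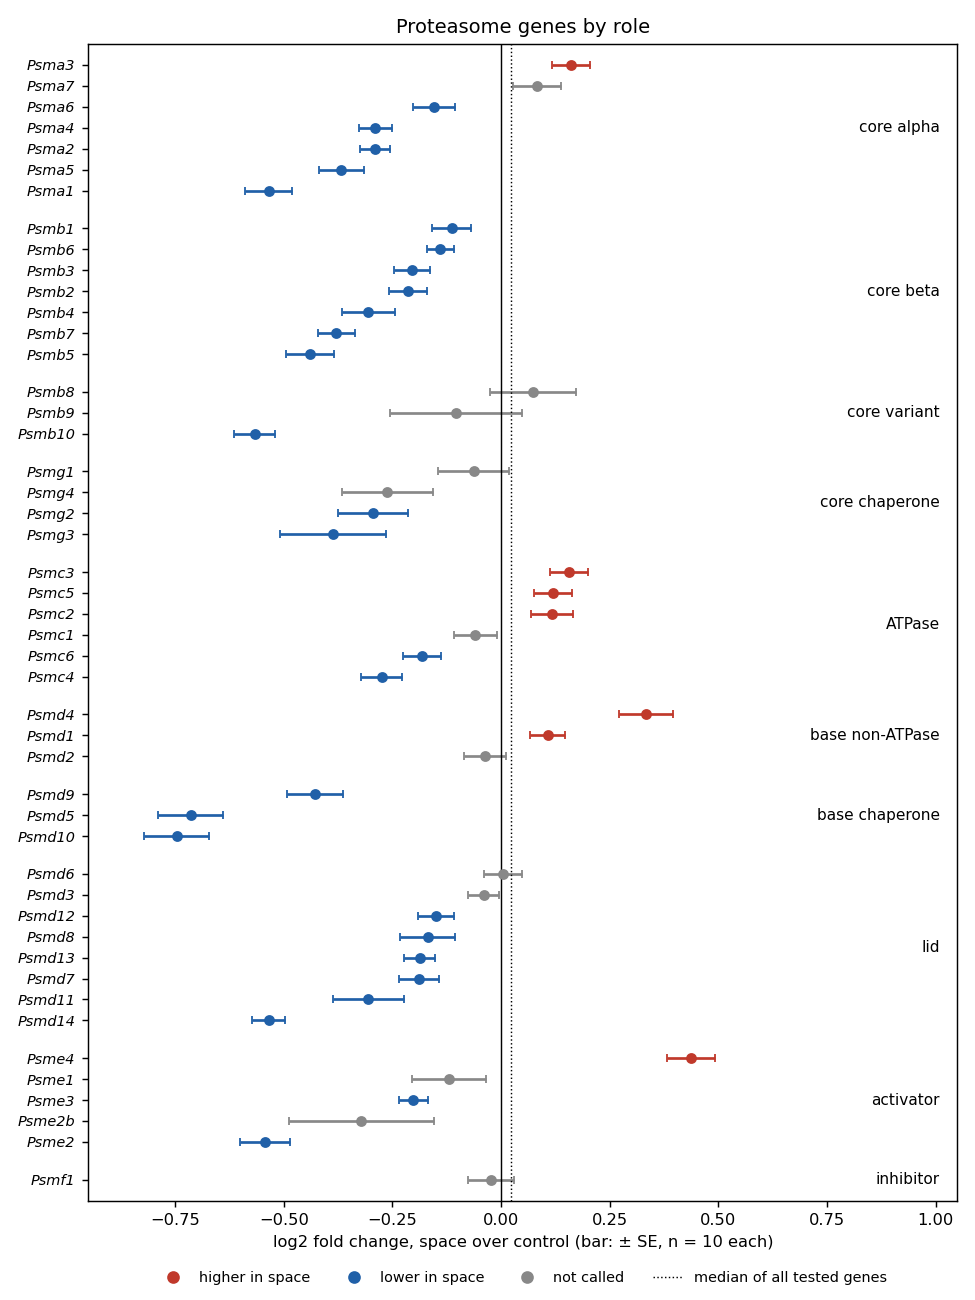
Log2 fold change, space over control, of the 47 tested proteasome genes grouped by role; points are edgeR estimates, bars ± 1 SE of the difference of group means (n = 10 each), and the dotted line is the median of all tested genes (0.02). All 7 core beta genes lie left of 0, the ATPases lie on both sides, and the 3 base chaperones lie farthest left as a group.

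Called genes lay in different directions in different classes. Among core genes, 5 of 7 alpha subunits and 7 of 7 beta subunits were lower, with medians of -0.29 and -0.21 on the log2 scale, and 1 alpha subunit was higher. Among 19S genes, 6 of 8 lid subunits were lower and none higher (median -0.18), whereas 3 of 6 ATPases were higher and 2 lower (median 0.03), and 2 of 3 other base subunits were higher and none lower (median 0.11). All 3 base chaperones were lower (median -0.71), as were 2 of 4 core chaperones (median -0.28), and the activators held 1 higher and 2 lower gene of 5 (median -0.20). Over all tested genes 28.7% were higher and 28.9% lower. The classes named hold 3 to 8 genes, and their counts were not tested against these shares. None of the 19S genes called higher stayed so against a fold of 1.2. The calls of Psmc2 and Psmd1 were also lost on leaving out some single libraries. The ATPase median lay close to that of all tested genes with either scaling (0.03 against 0.02 with TMM, 0.11 against 0.10 with library size alone). The median of the 17 subunits of the 19S cap changed sign with the scaling, from -0.06 with TMM to 0.02 with library size alone.

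The same order was seen within libraries. For each library, the class median of log2 CPM minus the control mean was taken; space libraries are among the values from which the classes above were described, so this shows only how widely each order was shared. The ATPase median was above the core beta median in 10 of 10 space libraries, the base subunit median was above the lid median in 10 of 10, and the base chaperone median was the lowest of the classes in 10 of 10. Core alpha medians ran from -0.36 to -0.16 in space libraries and from -0.14 to 0.09 in control libraries, with no overlap. Core beta medians ran from -0.41 to -0.02 in space libraries and from -0.06 to 0.12 in control libraries, and 9 of 10 space libraries were below every control library. Space libraries 1 to 4, those with high nerve markers, were at the low end for the lid (-0.28 to -0.23, against -0.20 to 0.01 in space libraries 5 to 10) and for the ATPases (-0.14 to -0.04, against -0.04 to 0.27). They also had higher TMM factors, 1.054 to 1.16, against 0.9455 to 1.011 in space libraries 5 to 10. A higher factor lowers CPM, and its part in this shift was not tested. For the base chaperones both sets of space libraries spanned much the same range (-0.86 to -0.52 and -0.86 to -0.38).

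**Figure D2:**
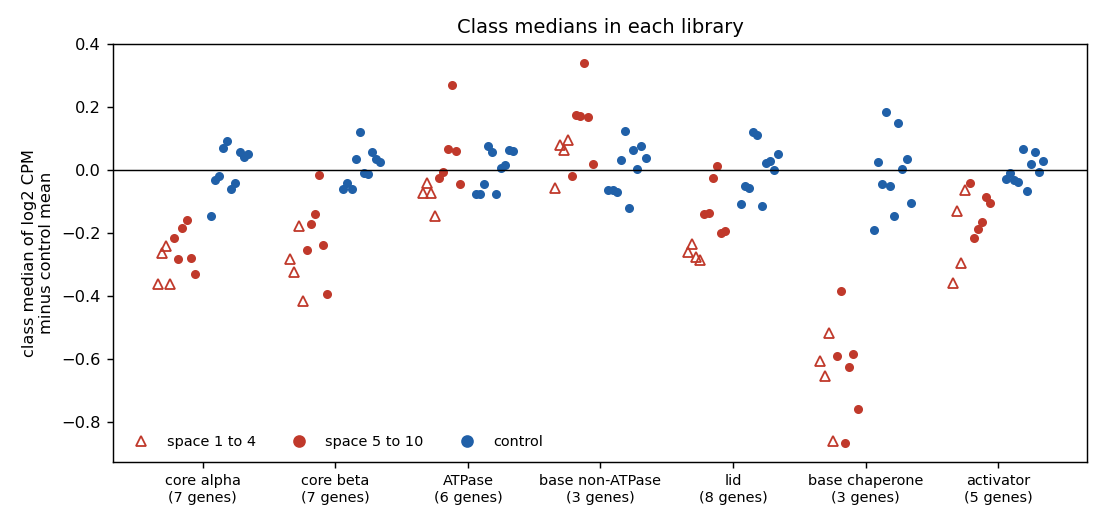
Class median of log2 CPM minus the control mean in each library; each point is 1 library, open triangles are space libraries 1 to 4, filled red points space libraries 5 to 10 and blue points control libraries. Core alpha (-0.36 to -0.16) and base chaperone (-0.86 to -0.38) medians of the space libraries lie below every control library, while ATPase medians (-0.14 to 0.27) overlap the controls.

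NRF1 binds antioxidant response elements, whose core letters are TGACNNNGC, and RefSeq promoters on GRCm38.p6 were searched for these letters on both strands from 250 bases before to 50 after the start site. Promoters were found for 41 of the 49 proteasome genes (44 promoters), and the genes without one include Psmb1, Psmb2, Psmb7 and Psmc3. The letters occurred in 6 of the 44 (13.6%), against 12.4% of 32851 promoters in the table, so at this stringency proteasome promoters held them about as often as others. The looser letters TGANNNNGC, which include every match of the first set, occurred in 56.8% of proteasome promoters and 41.3% of all. A match is a description of the letters and not a site. The 4 promoters with TGACNNNGC within 50 bases of the start are shown because they include catalytic and chaperone genes that were lower in space (Psmb5, Psmb6, Psmd9) and the activator gene that was most raised (Psme4). Each runs 5′ to 3′ on the gene's strand, from 250 bases before to 30 after the start, with the match in capitals; in Psme4 the match is on the opposite strand.
Psmb5, chr14:54617966-54618245, minus strand: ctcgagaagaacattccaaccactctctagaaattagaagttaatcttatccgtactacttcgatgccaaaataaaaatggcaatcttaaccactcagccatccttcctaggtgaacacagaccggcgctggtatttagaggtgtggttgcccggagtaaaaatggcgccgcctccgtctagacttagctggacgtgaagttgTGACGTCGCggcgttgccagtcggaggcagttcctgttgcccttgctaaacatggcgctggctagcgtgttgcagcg
Psmb6, chr11:70525107-70525386, plus strand: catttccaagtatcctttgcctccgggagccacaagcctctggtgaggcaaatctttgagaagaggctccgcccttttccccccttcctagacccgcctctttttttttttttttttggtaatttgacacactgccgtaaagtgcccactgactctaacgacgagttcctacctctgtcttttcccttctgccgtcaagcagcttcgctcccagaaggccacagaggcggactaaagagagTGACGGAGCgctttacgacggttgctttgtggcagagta
Psmd9, chr5:123227940-123228219, plus strand: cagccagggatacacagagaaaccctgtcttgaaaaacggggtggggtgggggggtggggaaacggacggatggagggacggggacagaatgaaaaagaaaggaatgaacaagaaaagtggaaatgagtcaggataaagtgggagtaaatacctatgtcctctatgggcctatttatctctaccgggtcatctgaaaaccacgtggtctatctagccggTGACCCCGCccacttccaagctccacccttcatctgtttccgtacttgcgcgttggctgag
Psme4, chr11:30771525-30771804, plus strand: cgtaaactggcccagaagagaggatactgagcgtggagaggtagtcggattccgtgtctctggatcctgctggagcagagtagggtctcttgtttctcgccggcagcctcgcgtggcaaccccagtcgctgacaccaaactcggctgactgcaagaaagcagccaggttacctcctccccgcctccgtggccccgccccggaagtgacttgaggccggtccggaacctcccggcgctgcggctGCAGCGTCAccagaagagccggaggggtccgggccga
The first base of the match lies 47 bases before the start in Psmb5, 9 in Psmb6, 31 in Psmd9 and 7 in Psme4. By call, TGACNNNGC occurred in 5 of 25 promoters of proteasome genes lower in space (20.0%) and in 1 of 7 of those higher (14.3%). Whether a match bears on expression was not tested. The other matches, in Psmc6 and Psmd12, lie farther upstream, at 227 and 247 bases before the start.

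The outer rings of the core fell in all but 2 members. Psma1 had 25.5, 30.2 and 33.8 CPM in space libraries (lowest, median, highest), against 36.1, 43.7 and 47.0 CPM in control libraries. The groups did not overlap, and Psma1 was 1.45-fold lower in space (log2 fold change -0.53 with an SE of 0.054, edgeR adjusted p = 5.05e-09). Psma2 had 32.3, 35.5 and 38.9 CPM in space libraries and 40.4, 43.0 and 48.3 CPM in control libraries, again without overlap (log2 fold change -0.29, edgeR adjusted p = 5.42e-07). Psma4 and Psma5 also separated the groups, at -0.29 and -0.37 on the log2 scale. Psma6 was at -0.15 (edgeR adjusted p = 0.00804), and the call was lost without space libraries 1 to 4 (p = 0.0568) and with library size alone (p = 0.226). Psma3, the alpha subunit that went the other way, had 76.0, 84.9 and 98.4 CPM in space libraries and 69.0, 76.0 and 83.0 CPM in control libraries. Its groups overlapped, 9 of 10 space libraries were above the control mean, and the log2 fold change was 0.16 (edgeR adjusted p = 0.00331). Psma7 was not called at 0.08, although it was with library size alone (0.16, p = 0.0106).

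The inner rings carry the constitutive proteolytic sites, and all 3 genes for them were lower in space. Psmb5, the chymotrypsin-like site, had 18.6, 23.1 and 26.4 CPM in space libraries and 29.9, 30.6 and 33.6 CPM in control libraries. Every space library was below every control library, and the gene was 1.36-fold lower (log2 fold change -0.44 with an SE of 0.055, edgeR adjusted p = 1.53e-07). Psmb7, the trypsin-like site, had 61.4, 68.8 and 74.7 CPM in space libraries and 85.2, 89.0 and 97.2 CPM in control libraries. It too separated the groups (log2 fold change -0.38 with an SE of 0.042, edgeR adjusted p = 5.61e-08), and the 4 lowest space libraries were libraries 1 to 4, at 61.4 to 64.8 CPM. Without those libraries Psmb5 was at -0.35 and Psmb7 at -0.29, and both stayed past the threshold. Psmb6, the caspase-like site, moved less, with 54.8, 57.4 and 63.3 CPM in space libraries and 58.6, 63.7 and 68.0 CPM in control libraries. The groups overlapped, every space library was below the control mean, and the log2 fold change was -0.14 (edgeR adjusted p = 0.00148); with library size alone it was -0.06 and not called (p = 0.151).

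The beta subunits without a proteolytic site were lower by 0.11 to 0.31 on the log2 scale. Psmb2, Psmb3 and Psmb4 were each below the control mean in 10 of 10 space libraries, at -0.21, -0.21 and -0.31. Psmb1 was the least secure, at -0.11 (edgeR adjusted p = 0.035). Leaving out 1 library gave adjusted p-values of 0.0124 to 0.0666, and the call was lost without any one of space libraries 1, 4, 5 or 10 or control libraries 4, 5, 7, 8 or 9. It was also lost without space libraries 1 to 4 (-0.08, p = 0.195), which left 6 of 7 beta subunits lower. Some counts may belong to overlapping genes, since how the counting treated strand is not stated. Psmb7 shares 11.8% of its exon bases with Nek6 on the opposite strand and Psmb5 12.1% with Mir686 on its own strand. Elsewhere in the particle Psmd13 shares 10.1% with Sirt3, Psmg3 9.7% with Gm26938, Psmc3 8.2% with Slc39a13 and Psmd1 7.6% with Htr2b and Gm21972.

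**Figure D3:**
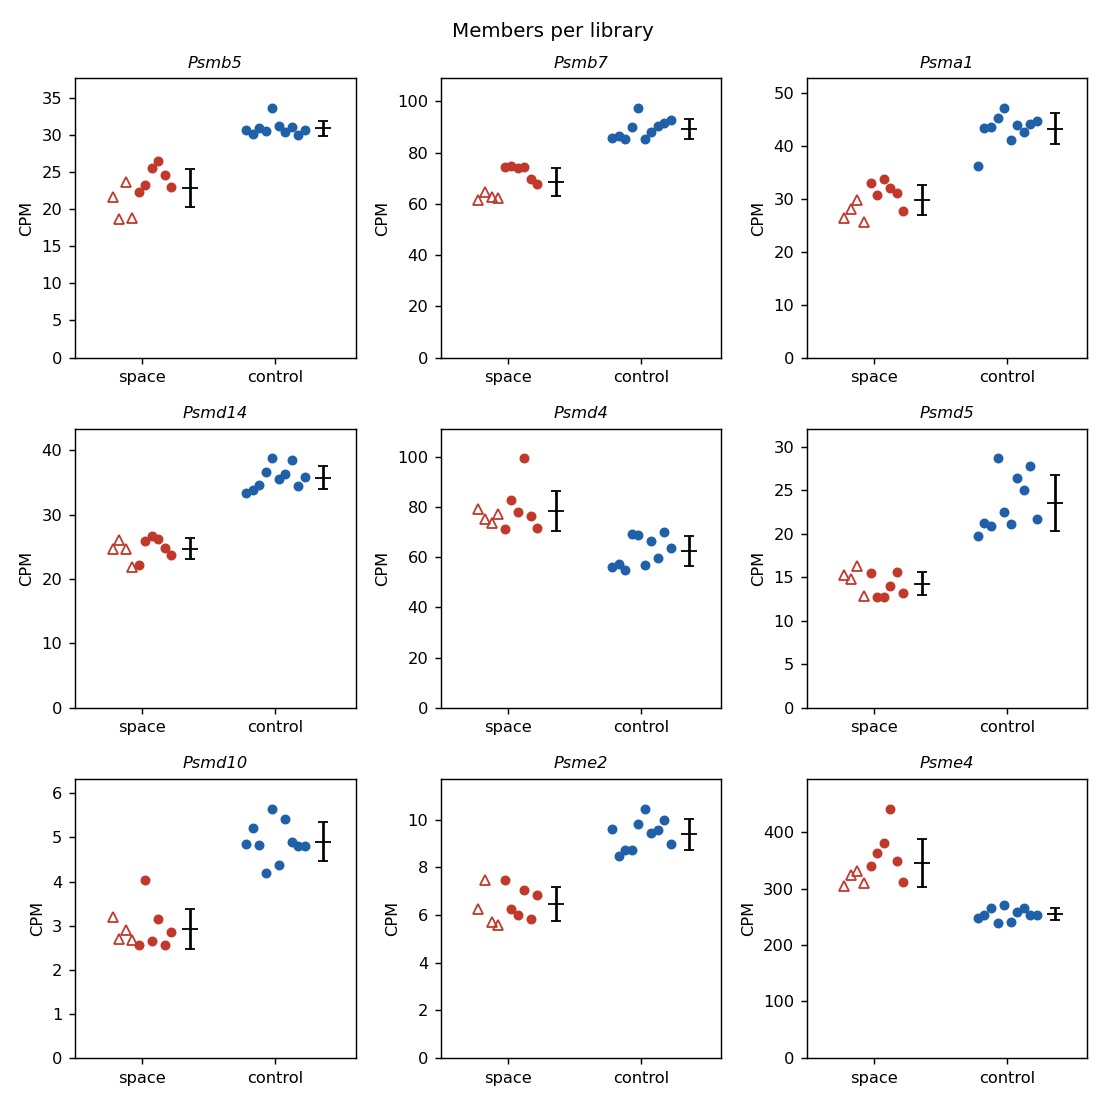
CPM of 9 proteasome genes in each library, with space libraries on the left (open triangles, libraries 1 to 4) and control libraries on the right; bars are mean ± SD (n = 10 each) and each axis starts at 0. The groups do not overlap in any of the 9 genes. Psmd4 (71.3 to 99.4 CPM in space, 55.1 to 70.2 CPM in control) and Psme4 are higher in space and the other 7 are lower. Over all 47 tested proteasome genes, groups did not overlap for 12 lower genes (25.5%, against 11.0% of all tested genes) and 2 higher genes (4.26%, against 6.48%).

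In cells exposed to interferon the 3 proteolytic subunits are exchanged for inducible ones, Psmb8 for Psmb5, Psmb9 for Psmb6 and Psmb10 for Psmb7, which gives the immunoproteasome. In this muscle the inducible genes were expressed at a small fraction of their constitutive counterparts. Per kilobase of merged exons, Psmb8 averaged 0.764 CPM in space and 0.726 CPM in control libraries, where Psmb5 averaged 25.3 CPM in space and 34.4 CPM in control libraries. Psmb10 averaged 1.95 CPM per kilobase in space and 2.89 in control libraries, where Psmb7 averaged 20.1 in space and 26.1 in control libraries. These gaps depend on exon length. Merged exons cover 3381 bases in Psmb8 and 899 in Psmb5, which widens the gap, but 1705 in Psmb10 and 3421 in Psmb7, which narrows it. Without the length, the mean log2 ratio in control libraries was -3.64 for Psmb8 over Psmb5 and -4.16 for Psmb10 over Psmb7. Per kilobase, Psmb9 was the lowest tested member, at 0.325 CPM in space and 0.346 in control libraries. In CPM without the length, Psme2b was lower, with a control mean of 0.890 against 1.27 for Psmb9.

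Of the inducible genes, 1 was lower and 2 were not called. Psmb10 had 2.94, 3.30 and 3.65 CPM in space libraries and 4.36, 4.95 and 5.62 CPM in control libraries. The groups did not overlap, and the gene was 1.48-fold lower in space (log2 fold change -0.57 with an SE of 0.047, edgeR adjusted p = 7.28e-08). Psmb8 had 2.35, 2.54 and 3.35 CPM in space libraries and 1.66, 2.47 and 3.13 CPM in control libraries, and was not called (log2 fold change 0.07, edgeR adjusted p = 0.578). Psmb9 had 0.756, 1.25 and 1.45 CPM in space libraries and 0.741, 1.21 and 1.81 CPM in control libraries, and was not called either (-0.10, edgeR adjusted p = 0.580). Exons of Psmb8 and Psmb9 overlap those of Gm20496 (14.7%) and Tap1 (5.8%) on the opposite strand, so these low counts are uncertain.

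The balance of each pair was compared as the log2 ratio of inducible over constitutive CPM within a library, with 2-sided permutation tests adjusted over the 3 ratios. Scaling cancels in such a ratio except through the prior count of 2 in log2 CPM, which weighs most at low counts. For Psmb8 over Psmb5 the ratio was -3.31, -3.17 and -2.67 in space libraries and -4.14, -3.60 and -3.24 in control libraries. All 10 space libraries were above the control mean although the groups overlapped, and the difference was 0.53 (SE 0.118, adjusted permutation p = 0.0003). It was 0.42 without space libraries 1 to 4 (unadjusted permutation p = 0.0015). Taken singly, Psmb8 was not called and Psmb5 was lower. For Psmb10 over Psmb7 the ratio was -4.58, -4.38 and -4.09 in space libraries and -4.28, -4.16 and -4.02 in control libraries. Here 8 of 10 space libraries were below the control mean, with a difference of -0.18 (SE 0.054, adjusted permutation p = 0.00651). For Psmb9 over Psmb6 the difference was 0.07 (SE 0.159, adjusted permutation p = 0.674), and the spread of both groups was wide.

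**Figure D4:**
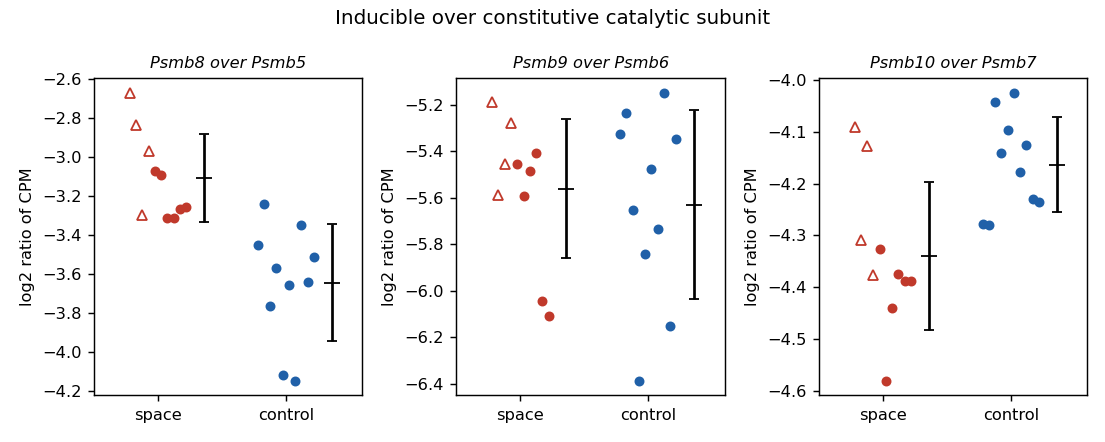
Log2 ratio of inducible over constitutive proteolytic subunit in each library, from CPM; space libraries are on the left (open triangles, libraries 1 to 4), control libraries on the right, and bars are mean ± SD (n = 10 each). The Psmb8 over Psmb5 ratio is higher in space by 0.53, the Psmb10 over Psmb7 ratio lower by 0.18, and the Psmb9 over Psmb6 ratio overlaps throughout.

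Genes that act with the immunoproteasome in antigen presentation were counted as a list of 10, of which 1 was higher in space, against 28.7% of all tested genes, and 3 were lower, against 28.9%, a share close to that of the whole table. Leaving out space libraries 1 to 4 gave 5 lower genes, against 26.1% of all tested genes, and ended the higher call. H2-K1, a class I heavy chain, was that call, at 0.29 with all libraries and 0.18 without those 4 (edgeR adjusted p = 0.136). Among the lower genes, Tapbp, which loads class I molecules, was at -0.21 and Erap1, which trims peptides, at -0.39. B2m, the light chain of class I molecules, was not called with all libraries (-0.18, p = 0.0637) and was lower without space libraries 1 to 4 (-0.33, p = 0.00156). The sum of 8 lymphocyte markers was 0.144 to 0.491 CPM in space libraries and 0.117 to 0.656 CPM in control libraries, and none was high enough to be tested. The sum of 8 macrophage markers was 51.2 to 94.3 CPM in space libraries and 38.6 to 75.4 CPM in control libraries, with 2 of the 8 higher, and its part in these values was not tested. The 2 tissue-restricted core genes were nearly absent. Psma8, an alpha subunit of male germ cells, had 0 to 12 reads per space library and 1 to 5 per control library, and Psmb11, the beta subunit of thymic epithelium, had 0 in all 20, which allows at most 0.0691 to 0.173 CPM by library (3 counts, counting error only).

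Within the ATPase ring the genes split. Psmc3 had 90.1, 99.5 and 119.9 CPM in space libraries and 85.2, 88.2 and 96.4 CPM in control libraries. The groups overlapped, 10 of 10 space libraries were above the control mean, and the log2 fold change was 0.16 (edgeR adjusted p = 0.00417). Psmc5 had 48.9, 53.4 and 67.0 CPM in space libraries and 47.4, 49.6 and 52.5 CPM in control libraries (log2 fold change 0.12, edgeR adjusted p = 0.0268). Psmc2 was at 0.12 as well (p = 0.0374), but leaving out 1 library gave adjusted p-values of 0.0075 to 0.0814, and the call was lost without any one of space libraries 5, 7, 8 or 9 or control libraries 1, 2, 3, 6 or 7. Psmc4 went the other way, with 31.6, 36.7 and 39.8 CPM in space libraries and 39.6, 44.1 and 47.9 CPM in control libraries. Only the extremes of its groups met, and it was 1.21-fold lower (log2 fold change -0.28, edgeR adjusted p = 2.11e-05). Psmc6 had 56.7, 60.6 and 68.8 CPM in space libraries and 58.8, 70.9 and 74.6 CPM in control libraries (log2 fold change -0.18, edgeR adjusted p = 0.00101). Psmc1 was at -0.06 and not called. In space libraries 1 to 4 alone Psmc3 reached no more than 99.1 CPM, and without them it was at 0.22 and Psmc5 at 0.18.

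Among the other base subunits, Psmd4, a receptor that holds the ubiquitin chain, had 71.3, 76.9 and 99.4 CPM in space libraries and 55.1, 61.7 and 70.2 CPM in control libraries. The groups did not overlap, and Psmd4 was 1.26-fold higher in space (log2 fold change 0.33 with an SE of 0.062, edgeR adjusted p = 3.39e-05). Against a fold of 1.2 it was not called (edgeR adjusted p = 0.116). Psmd1, a large scaffold subunit, had 101, 112 and 133 CPM in space libraries and 99.6, 105 and 112 CPM in control libraries, a log2 fold change of 0.11 (edgeR adjusted p = 0.0332). That call was lost without any one of space libraries 6, 7, 8 or 9 or control libraries 1, 3, 4 or 6, with adjusted p-values of 0.0119 to 0.0705 over the libraries left out in turn. Psmd2, the other scaffold subunit, was at -0.04 and not called.

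Lid genes were lower or not called. Psmd14, the deubiquitinating enzyme that removes the chain before a substrate is unfolded, had 21.9, 24.7 and 26.6 CPM in space libraries and 33.3, 35.6 and 38.7 CPM in control libraries. The gap between the groups was wider than the range of the space group, and Psmd14 was 1.45-fold lower with the smallest adjusted p of any proteasome gene (log2 fold change -0.53 with an SE of 0.038, edgeR adjusted p = 8.42e-11). Without space libraries 1 to 4 it was at -0.51. Psmd11, which clamps the lid to the core, had 89.4, 109 and 143 CPM in space libraries and 112, 137 and 164 CPM in control libraries. These groups overlapped widely (log2 fold change -0.31 with an SE of 0.082, edgeR adjusted p = 0.00157), and without space libraries 1 to 4 the value was -0.21 (p = 0.0394). Psmd13 had 30.4, 32.6 and 37.0 CPM in space libraries and 35.3, 36.9 and 40.8 CPM in control libraries (log2 fold change -0.19, edgeR adjusted p = 0.000241). Psmd7, which pairs with Psmd14, was at -0.19, Psmd8 at -0.17 and Psmd12 at -0.15. The calls of Psmd8 and Psmd12 were lost without space libraries 1 to 4 (-0.10 with p = 0.214, and -0.09 with p = 0.109) and with library size alone. Psmd3 (-0.04) and Psmd6 (0.00) were not called.

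The chaperones that assemble the base had the lowest class median. Psmd10, also known as gankyrin, had 2.56, 2.78 and 4.03 CPM in space libraries and 4.20, 4.85 and 5.66 CPM in control libraries. The groups did not overlap, with 1 space library close to the lowest control, and Psmd10 was 1.68-fold lower (log2 fold change -0.75 with an SE of 0.075, edgeR adjusted p = 5.47e-08). Psmd5 had 12.7, 14.4 and 16.3 CPM in space libraries and 19.7, 22.1 and 28.6 CPM in control libraries. It was 1.64-fold lower, also without overlap (log2 fold change -0.71 with an SE of 0.075, edgeR adjusted p = 6.89e-09). Psmd9 was at -0.43 (edgeR adjusted p = 4.96e-06), but 25.5% of its exon bases overlap Gm26745 on the opposite strand. Without space libraries 1 to 4 these 3 genes were at -0.72, -0.74 and -0.37. These chaperones were made at a low level, 1.28 to 1.99 CPM per kilobase in space and 1.72 to 3.34 in control libraries, against a median over the 8 lid subunits of 18.9 in space and 20.9 in control libraries. Long merged exons of Psmd5 (7230 bases) and Psmd9 (7248 bases) lower their values per kilobase. In CPM without the length, control means were 4.91 to 23.5 for these chaperones and 35.8 to 137 for the lid subunits.

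Of the 4 core chaperones, Psmg2 had 5.91, 7.47 and 9.29 CPM in space libraries and 7.68, 9.04 and 11.1 CPM in control libraries (log2 fold change -0.30, edgeR adjusted p = 0.00268). Its partner Psmg1, with which it starts the alpha ring, was not called at -0.06. Psmg3 had 0.757, 1.08 and 1.61 CPM in space libraries and 0.949, 1.43 and 1.93 CPM in control libraries (log2 fold change -0.39, edgeR adjusted p = 0.0200), and the call was lost without space libraries 1 to 4 (-0.24, p = 0.212) and with library size alone (-0.31, p = 0.0566). Psmg4, the partner of Psmg3, was at -0.26 and just missed the threshold (edgeR adjusted p = 0.0533). It passed without any one of space libraries 8 or 10 or control libraries 3 or 5, over a range of 0.0196 to 0.120. Pomp, which is not among the 49 genes and matures the beta rings, had 28.7, 32.4 and 35.3 CPM in space libraries and 41.2, 42.9 and 45.7 CPM in control libraries. The groups did not overlap (log2 fold change -0.42 with an SE of 0.035, edgeR adjusted p = 1.47e-09).

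The activators were the class with the widest spread. Psme4, which encodes PA200, a large cap that works without ATP or ubiquitin, had 305, 336 and 442 CPM in space libraries and 240.0, 254 and 272 CPM in control libraries. It was 1.35-fold higher without overlap (log2 fold change 0.44 with an SE of 0.055, edgeR adjusted p = 3.23e-07), and the one proteasome gene called higher against a fold of 1.2 (p = 0.00248). Without space libraries 1 to 4, which lay at 305 to 331 CPM, the value was 0.52. Psme2, which with Psme1 forms the interferon-inducible PA28 ring, had 5.57, 6.25 and 7.46 CPM in space libraries and 8.47, 9.50 and 10.5 CPM in control libraries. Its groups did not overlap, and it was 1.46-fold lower (log2 fold change -0.54 with an SE of 0.058, edgeR adjusted p = 9.15e-08).

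The partner of Psme2 in the same ring, Psme1, had 16.8, 22.3 and 29.5 CPM in space libraries and 19.8, 25.0 and 27.3 CPM in control libraries. It was not called (log2 fold change -0.12, edgeR adjusted p = 0.194), although it passed without space library 5 (-0.17, p = 0.0465). Psme2b, a near-identical copy of Psme2 whose counts are uncertain because reads may be shared, had 0.526, 0.702 and 0.949 CPM in space libraries and 0.352, 0.881 and 1.19 CPM in control libraries. It was not called (-0.32, edgeR adjusted p = 0.102) and passed without control library 9 (-0.40, p = 0.0237). Psme3, the nuclear relative of these activators, had 46.0, 52.5 and 56.0 CPM in space libraries and 56.7, 59.7 and 61.9 CPM in control libraries. The groups lay side by side without overlap (log2 fold change -0.20, edgeR adjusted p = 6.01e-05). Psmf1, an inhibitor of the core in vitro, was at -0.02 and not called. Psmc3ip, matched by symbol alone, was at 0.38 and not called (edgeR adjusted p = 0.0725), and passed without any one of space libraries 5 or 8 or control libraries 4 or 8, over a range of 0.0362 to 0.153.

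Genes that regulate, build or feed the proteasome were followed as a list of 28, of which 27 were found and tested. In space muscle 10 of the 27 were higher, against 28.7% of all tested genes, and 9 were lower, against 28.9%, so both counts lay near the share over the whole table. Leaving out space libraries 1 to 4 gave 10 higher and 6 lower. With all libraries, the median log2 fold change of the 27 was -0.01, and it was 0.07 with library size alone. Nfe2l1, which encodes NRF1, had 478, 547 and 589 CPM in space libraries and 926, 1039.8 and 1239 CPM in control libraries. The highest space library was far below the lowest control library, and Nfe2l1 was 1.95-fold lower (log2 fold change -0.97 with an SE of 0.048, edgeR adjusted p = 1.82e-13). Ddi2, the protease that cuts NRF1 into its active form, had 108, 139 and 167 CPM in space libraries and 69.4, 77.0 and 86.7 CPM in control libraries. It was 1.80-fold higher, also without overlap (log2 fold change 0.85 with an SE of 0.077, edgeR adjusted p = 4.95e-10). Ngly1, which strips sugars from NRF1 and was chosen for mention after its values were seen, was 1.18-fold higher (46.6, 48.1 and 57.2 CPM in space libraries, 37.9, 41.5 and 45.8 CPM in control libraries; edgeR adjusted p = 4.49e-05). Without space libraries 1 to 4, Nfe2l1 was at -0.90, Ddi2 at 0.91 and Ngly1 at 0.27. Other genes of the list, also mentioned after their values were seen, went both ways. Vcp was lower (log2 fold change -0.23, edgeR adjusted p = 0.000832) and Nploc4 was higher (0.32, edgeR adjusted p = 9.52e-06). Ufd1 was not called at -0.04.

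The enzymes and receptors that dock on the 19S cap went both ways. Usp14, a deubiquitinating enzyme of the base, had 31.2, 36.6 and 41.7 CPM in space libraries and 42.0, 43.9 and 45.9 CPM in control libraries (log2 fold change -0.26, edgeR adjusted p = 2.83e-05). Uchl5, the other one, had 9.48, 11.3 and 12.5 CPM in space libraries and 7.27, 8.27 and 9.33 CPM in control libraries (log2 fold change 0.41, edgeR adjusted p = 2.88e-06). Neither gene's groups overlapped, and they lay on opposite sides. Adrm1, the ubiquitin receptor that recruits Uchl5, had 45.6, 48.5 and 54.1 CPM in space libraries and 38.6, 42.3 and 52.3 CPM in control libraries (log2 fold change 0.21, edgeR adjusted p = 0.000807). Sem1, a small lid subunit outside the symbol rule, had 10.9, 13.3 and 15.8 CPM in space libraries and 13.8, 15.1 and 17.8 CPM in control libraries. It was at -0.19 (edgeR adjusted p = 0.0148), and the call was lost without space libraries 1 to 4 (-0.07, p = 0.325) and with library size alone (-0.12, p = 0.094). Ubb, a polyubiquitin gene, had 209.6, 235 and 269.6 CPM in space libraries and 179.8, 203 and 225 CPM in control libraries (log2 fold change 0.22, edgeR adjusted p = 0.00068).

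**Figure D5:**
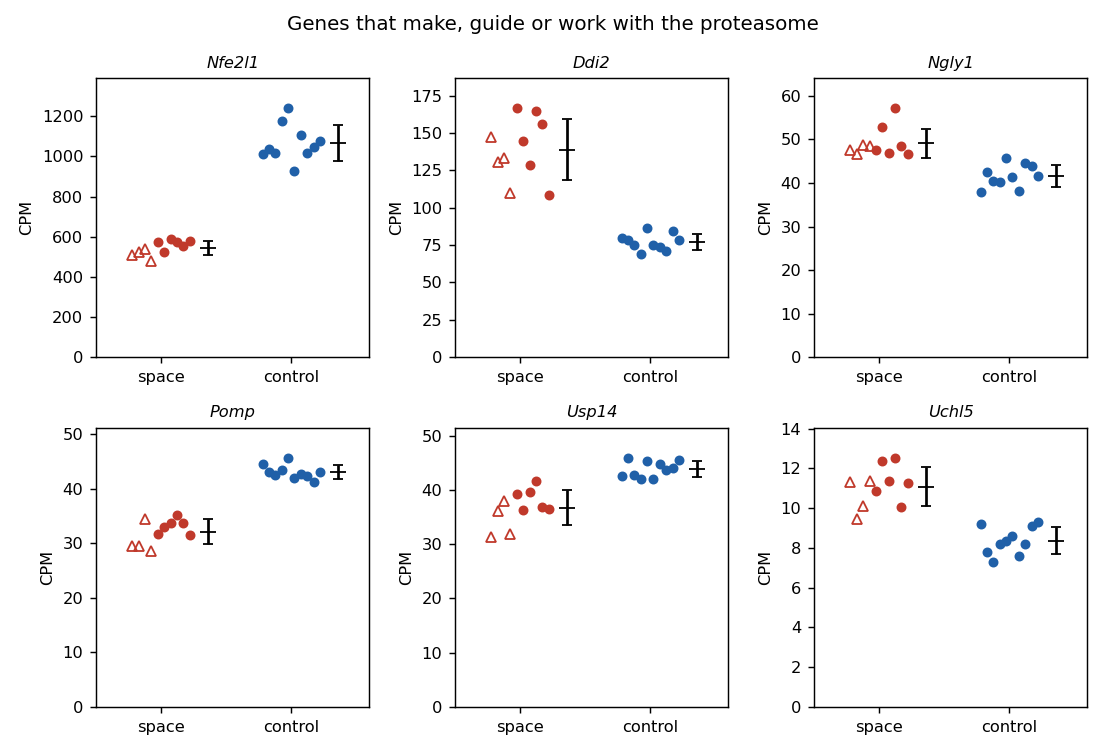
CPM of 6 genes that regulate or work with the proteasome in each library, with space libraries on the left (open triangles, libraries 1 to 4) and control libraries on the right; bars are mean ± SD (n = 10 each) and each axis starts at 0. Nfe2l1, Pomp and Usp14 are lower and Ddi2, Ngly1 and Uchl5 higher in space, with no overlap between groups in any of the 6.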

How the data were processed

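Raw read counts, with 1 row per Ensembl gene and 20 library columns, are what the authors deposited; per the labels' protocols, libraries were made from 90 ng of total RNA depleted of ribosomal RNA. Per the submitters' processing notes, MultiQC 1.15, Subread, featureCounts 1.5.1, edgeR and genome build GRCm39 were used; strand use, annotation release and treatment of multiply mapped reads were not given in these sources. Groups came from the labels. Names came from GENCODE M21 (52000 of 56941 rows, 97.6% of counts), as did exon lengths and overlaps, on GRCm38; promoters came from RefSeq on GRCm38.p6. 4 pseudogenes matched by symbol were left out.

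Counts were fitted over the whole table with edgeR 4.0.16 in R 4.3.3 (filterByExpr with a minimum count of 10 and total of 15, TMM, robust quasi-likelihood, Benjamini-Hochberg threshold 0.05, no covariate). CPM uses TMM-scaled library sizes; log2 CPM adds a prior count of 2. The SE printed beside a fold change was computed from log2 CPM as the error of the mean difference between groups. Ratios were compared by permutation with 100000 resamples (scipy 1.17.1). The common biological coefficient of variation was 0.149. P-values judge a difference between groups against the spread between these mice. The fit was tested first on simulated data in which few genes changed, in both directions. In the present data 57.6% of tested genes were called, so the simulation does not test the scaling used here. The members and gene lists, the cell type markers included, were chosen with earlier results of these data known. The catalytic genes, activators, Psmd10, Psmd11, Psmd14 and, in each class, the 2 called members with the smallest p in each direction are given with lowest, median and highest values; other members are given more briefly. A few listed genes that are no members are not reported here. Alternatives were DESeq2 1.42.0 size factors and test, upper-quartile factors, library size alone, limma 3.58.1 voom with quality weights, other filters, a scaling without mitochondrial and the 10 most abundant genes, a fold threshold of 1.2, the sample number as a block and each library left out. Leaving out space libraries 1 to 4 together was added after seeing the data. The same sample numbers occur in both groups but do not mark shared animals.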

Additional observations from a re-analysis of the deposited data

Results flagged for a closer look

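A library far from the rest of its group was seen 12 times among 120 groups of 10 libraries, one for each gene and group; chance gives about 1 in 20. Space library 8 was the highest of its group in 5 of the 12, with 56.4 CPM of Psma6, 45.7 CPM of Psma7, 119.9 CPM of Psmc3, 67.0 CPM of Psmc5 and 99.4 CPM of Psmd4, where the next space libraries had 49.9, 38.8, 104.9, 55.8 and 82.8 CPM. Without that library Psma6, Psmc3, Psmc5 and Psmd4 kept their calls and Psma7 was still not called. Space library 1 was highest for Psmb8 (3.35 CPM) and space library 6 for Psmd10 (4.03 CPM). Among control libraries, library 5 was highest for Psmb5 (33.6 CPM) and lowest for Psme1 (19.8 CPM), library 1 was lowest for Psmc6 (58.8 CPM) and highest for Psmg4 (3.43 CPM), and library 4 was highest for Adrm1 (52.3 CPM).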

How the results depend on the processing

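No proteasome gene changed direction past the threshold under any alternative run. A fold threshold of 1.2 left 1 proteasome gene higher and 10 lower, 2 partner genes higher and 2 lower, and 2380 of all tested genes higher and 2484 lower. With library size alone 61.3% of all calls were higher and with upper-quartile factors 58.8%, against 49.8% with TMM; proteasome calls were then 8 higher with 22 lower, and 8 higher with 24 lower. DESeq2 gave 7 higher and 27 lower, limma-voom 7 and 28, and no filter 5 and 27. Leaving out 1 library gave 5 to 7 higher and 27 to 29 lower proteasome genes, and 10 higher and 9 lower partner genes throughout. For the ratios it gave 0.48 to 0.58 (Psmb8 over Psmb5), -0.01 to 0.13 (Psmb9 over Psmb6) and -0.20 to -0.15 (Psmb10 over Psmb7). With the sample number as a replicate block 7 proteasome genes were higher and 27 lower, and the block ended the call of Psmb1 (adjusted p = 0.0502); the numbers do not pair the libraries (correlations -0.132 to 0.0982, none closest to its own number). Low counts limit Psma8, Psmb9, Psmg3 and Psme2b.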
